A study of Drosophila melanogaster with 4 samples.

Results

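LSD1 is a histone demethylase that takes methyl groups off lysine 4 of histone H3, a modification found at active promoters and enhancers. It acts in complexes with partner proteins, among them the CoREST corepressor, that take part in bringing it to chromatin. In Drosophila melanogaster, LSD1 is known for silencing genes during development and for its part in forming heterochromatin, the compact chromatin near centromeres and telomeres. The regions described here are those called enriched for LSD1 along 3L, the left arm of the third chromosome. The arm runs from the telomere at its first base to the centromere. Members were the regions of the combined list on 3L that start at or before base 22543557 of FlyBase release 5, which leaves out the 2 Mb at the centromere end. They numbered 1751 of the 9018 regions in the combined list.

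The study mapped LSD1 by chromatin immunoprecipitation and sequencing (ChIP-seq) with the antibody Q3430 in Oregon-R embryos, a wild-type strain, aged 14 to 16 h. It comprised 2 ChIP samples and 2 inputs, which are genomic DNA without immunoprecipitation, 1 input serving each ChIP. All 4 samples came from the same strain, genotype and stage, from chromatin crosslinked with 1.8% formaldehyde. Whole embryos were used, so binding in a few cells and weak binding in many cannot be told apart. The deposited data are 3 lists of enriched regions, 1 per ChIP replicate and 1 combined list, each with a start, an end and a score. The score was read as a log2 value, although no header states its unit, and its fold is 2 to the power of the score. Folds rank regions within a list, because each list has a scale of its own. The lists hold no read depth, so the depth behind a region is unknown. Nothing in the labels says whether the replicates were separate embryo collections. With 1 combined list and 2 replicate lists no test between positions or arms was possible, and all comparisons are descriptions. Intervals are exact at 95%, Poisson for counts and Clopper-Pearson for shares, and cover counting error only, since neighbouring regions are not independent. Genes and sequences at these positions were not analysed here, because release 5 sequence and gene models were not used.

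LSD1 regions were spread along 3L, with starts in most bins of 100 kb. The combined list had 77.7 regions per Mb on 3L (interval 74.1 to 81.4), against 73.0 on 2L, 70.7 on 3R and 73.4 on X, each arm without the 2 Mb at its centromere end. Regions held 16.1% of the bases of 3L, or 3.62 Mb, against 15.0% on 2L, 15.3% on 3R and 15.2% on X. Without the first Mb at its telomere end, 3L had 75.8 regions per Mb (72.2 to 79.6) and 15.1% of bases in regions. These are single values per arm and were not tested. Arm 2R was not compared, so the other arms named here and below are 2L, 3R and X. Dividing 3L into 3 equal parts gave 83.8 regions per Mb on the telomere side, 75.5 in the middle and 73.7 on the centromere side. The first Mb is part of the telomere side. Of 225 bins of 100 kb along the arm, 7 held no start of a region, and the median bin had 13.8% of its bases in regions.

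Most regions of the arm had scores in a narrow range of the combined list. The median region of 3L had a score of 1.34-fold, with 1.30-fold and 1.39-fold at the quartiles. Medians were 1.34-fold on 2L and 3R and 1.40-fold on X. Above 2-fold stood 46 regions of 3L, or 2.63%, where the combined list as a whole had 4.56%. On the other arms the shares were 4.11% on 2L, 2.46% on 3R and 4.93% on X. Above 4-fold stood 15 regions of 3L, against 13 on 2L, 10 on 3R and 17 on X. The regions above 2-fold were scattered, with members in 20 of the 23 windows of 1 Mb.

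The strongest region of 3L that both replicates held was 3L:6392274-6394874, with a combined score of 12.01-fold over 2601 bp. Replicate 1 had it at 10.9-fold and rank 4 of its whole list, and replicate 2 at 13.8-fold and rank 3. Another strong region lay nearby on its telomere side, at 3L:6344200-6348510, with a combined score of 6.35-fold. Replicate 1 had it at 6.11-fold over 4161 bp, and replicate 2 at 11.3-fold over 2499 bp. This neighbour ranked 5 in replicate 2 and 21 in replicate 1.

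Of the other 8 among the 10 highest held by both, the region 3L:16153710-16159032 was the widest at 5323 bp. It had a combined score of 7.57-fold, and scores of 7.55-fold by replicate 1 and 8.68-fold by replicate 2. At 3L:18613440-18616960 the combined score was 7.12-fold, with 8.00-fold by replicate 1 and 10.2-fold by replicate 2. Another pair of neighbours followed. The region 3L:14571042-14573438 had a combined score of 6.98-fold, with 6.61-fold by replicate 1 and 7.55-fold by replicate 2. Its neighbour 3L:14591650-14594938 had 5.51-fold, with 4.93-fold by replicate 1 and 6.33-fold by replicate 2. The remaining members of the 10 were 3L:7904380-7906790, 3L:4975104-4977722, 3L:9735640-9738824 and 3L:18857624-18860338, at 6.10-fold, 5.75-fold, 5.53-fold and 4.66-fold in the combined list. Each of the 10 met 1 region of each replicate list, so the lists drew the same places as single regions.

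The highest score of the arm, 3L:14308878-14309878 at 12.8-fold, was held by neither replicate. It was 1001 bp wide, the narrowest width in the combined list. Scores of each list equal a constant times a ratio of whole numbers, and here that ratio was 6 to 1 in lowest terms. No file states what these whole numbers count. The highest score on X was also 12.8-fold. For the strongest region held by both, 3L:6392274-6394874, the ratio was 4200 to 743. The other 2 regions above 2-fold that neither replicate held were alike in width. At 3L:1512554-1513578 the fold was 5.84, the width 1025 bp and the ratio 11 to 4, and at 3L:3027480-3028514 the fold was 2.30, the width 1035 bp and the ratio 27 to 25. The other 43 of the 46 regions above 2-fold were held by both replicates, with a median width of 2609 bp. On the other arms both held 61 of 63 such regions on 2L, 44 of 45 on 3R and 62 of 74 on X. None on 3L was held by 1 replicate alone. The highest region that 1 replicate held was 3L:5688876-5689876 at 1.57-fold, found in replicate 2 at 1.65-fold. Next came 3L:22375920-22381336 and 3L:16149018-16152212 at 1.51-fold each, found in replicate 1 at 1.76-fold and 1.68-fold.

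Support from the replicates was asked by overlap of at least 1 bp. Both replicates held 263 of the 1751 regions of 3L, or 15.0% (13.4% to 16.8%), beside 18.3% over the whole combined list. The shares on the other arms were 18.1% on 2L, 18.3% on 3R and 18.9% on X, with the lowest interval bound among them at 16.2%. At least 1 replicate held 781 regions of 3L, or 44.6% (42.3% to 47.0%), beside 47.9% over the whole list. Replicate 1 alone held 414 regions, replicate 2 alone 104, and neither 970, or 55.4%. Whether 3L differs from the other arms in these shares was not tested. With the first Mb left out, an alternative added after the data were seen, both replicates held 14.4% and at least 1 held 43.2%.

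The replicate lists were unequal on this arm. Replicate 1 had 745 regions on 3L, or 33.0 per Mb (30.7 to 35.5), against 32.4 on 2L, 30.6 on 3R and 30.7 on X. Replicate 2 had 415 regions on 3L, or 18.4 per Mb (16.7 to 20.3), against 20.5 on 2L, 20.7 on 3R and 23.4 on X. Replicate 1 thus had 1.80 regions on 3L for each of replicate 2, where the ratio was 1.58 on 2L, 1.47 on 3R and 1.31 on X. In bases, replicate 1 covered 1.73 Mb of 3L and replicate 2 covered 0.814 Mb. Both covered 0.566 Mb, which is 28.7% of what they covered together, against 32.2% on 2L, 31.5% on 3R and 34.5% on X.

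Read from the replicate lists, 281 of the 745 regions of replicate 1 on 3L were shared with replicate 2. That is 37.7% (34.2% to 41.3%), beside 43.7% in the whole list of replicate 1. Of the 415 regions of replicate 2, 296 were shared with replicate 1, which is 71.3% (66.7% to 75.6%), beside 68.6% in the whole list of replicate 2. As similar numbers of regions were shared, the longer list had the smaller share, on this arm as over the whole lists. Cut to the 2607 highest-scoring regions of each list, the shares on 3L were 44.1% for replicate 1 and 51.6% for replicate 2. Above 2-fold, all 46 regions of replicate 1 and all 53 regions of replicate 2 on 3L were shared. The other arms were much the same. In replicate 1, 66 of 66 were shared on 2L, 50 of 51 on 3R and 78 of 80 on X. In replicate 2, all 71 on 2L, all 69 on 3R and all 72 on X were shared. The combined list held 729 regions of replicate 1, or 97.9% (97.5% over the whole list), and 407 of replicate 2, or 98.1% (96.9% over the whole list).

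Across the 263 regions held by both, the scores of the replicates ranked alike, with a Spearman's rho of 0.73. These points are regions of the same libraries and are not independent replicates. Among the 43 of them above 2-fold rho was 0.96, and among the other 220 it was 0.54. Among the 112 of 2000 to 3000 bp, a narrow range of width, rho was 0.70. The combined score and the width were only loosely related across the 263, with a rho of 0.18.

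**Figure D1:**
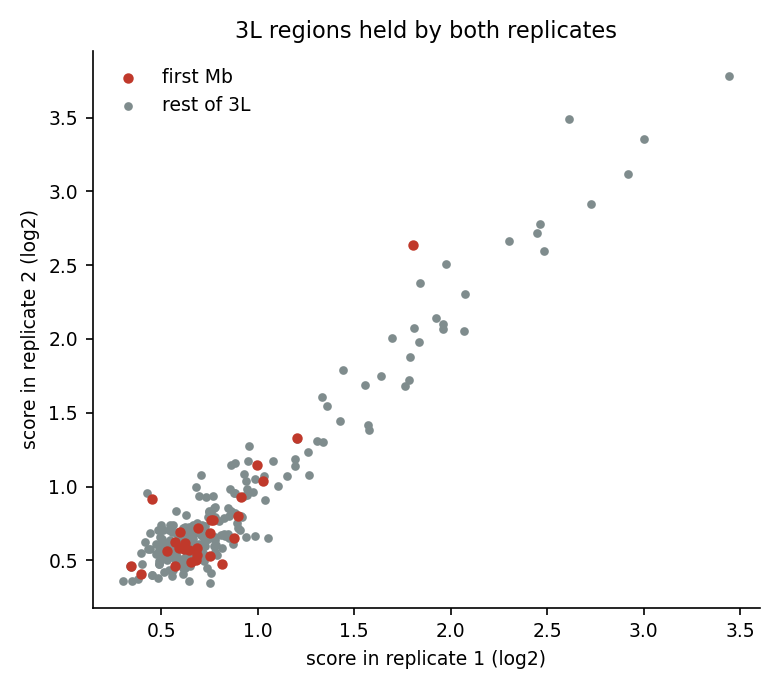
Score of the strongest overlapping region in replicate 1 (x axis, log2) and in replicate 2 (y axis, log2) for the 263 regions of 3L held by both replicates, each point a region, with the first Mb and the rest of 3L in different colours. Most points lie in a dense cloud at low scores, and the stronger regions follow a rising line up to 3L:6392274-6394874 at the upper right.

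Width went with support. The median width on 3L was 1635 bp, against 1653 bp on 2L, 1633 bp on 3R and 1682 bp on X, and the widest 10% of the regions of 3L began at 3479 bp. Regions held by both had a median width of 2929 bp, those of replicate 1 alone 1991 bp, those of replicate 2 alone 1766 bp, and those of neither 1275 bp. No replicate region was under 1301 bp wide, and of the 570 combined-list regions of 3L below that width none was held by both. A count of 0 in 570 allows a share of up to 0.645% (upper Clopper-Pearson bound). Held by both were 3.61% of the 664 regions from 1301 bp to under 2000 bp and 41.2% of the 272 from 2000 bp to under 3000 bp. From 3000 bp to under 5000 bp the share was 40.0% of 170 regions (32.6% to 47.8%), with another 50.0% held by replicate 1 alone. On the other arms the share held by both in that class was 54.1% on 2L, 56.0% on 3R and 56.0% on X. In the other classes from 1301 bp, 3L lay closer to the other arms. From 1301 bp to under 2000 bp they had 3.47% on 2L, 2.51% on 3R and 4.24% on X. From 2000 bp to under 3000 bp they had 47.3% on 2L, 42.3% on 3R and 48.6% on X. From 5000 bp the share was 78.7% on 3L, against 71.9% on 2L, 79.4% on 3R and 73.7% on X. Wider regions have more bases that can overlap, and the part of width alone in these shares was not tested.

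**Figure D2:**
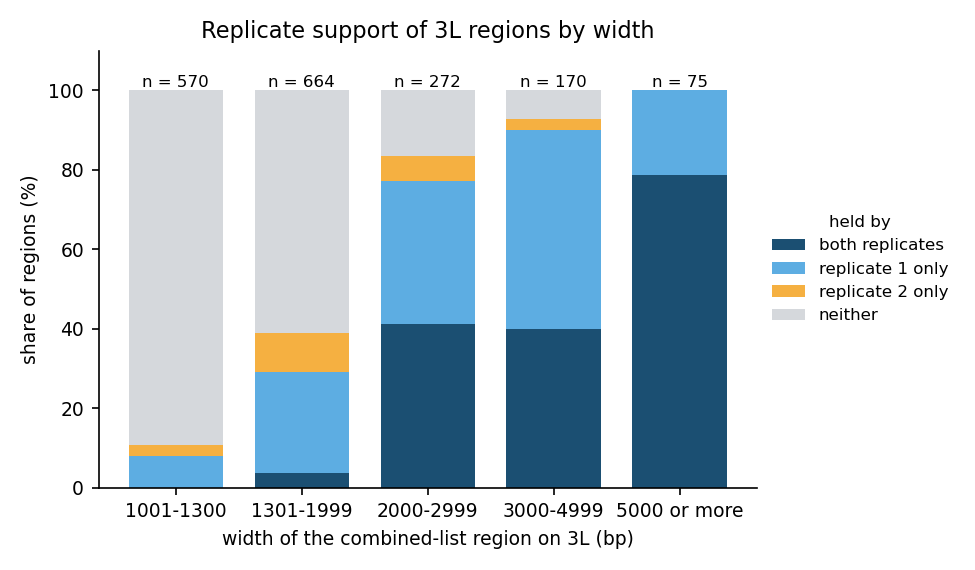
Share of the 3L regions of the combined list (y axis, percent) held by both replicates, by replicate 1 only, by replicate 2 only and by neither, in 5 classes of width (x axis, bp), with the number of regions above each bar. The part held by neither shrinks from 89.1% in the narrowest class to 0 in the widest.

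Regions of 5 kb or more made up 4.28% of those on 3L (75 regions), where the whole combined list had 4.71%, and they held 16.6% of the region bases of the arm. Both replicates held 59 of them and replicate 1 alone held 16. Of these, 12 were wider than 10 kb, against 10 on 2L, 17 on 3R and 9 on X, and 5 of the 12 lay in the first Mb. The widest, 3L:624052-650100, spanned 26049 bp at 1.60-fold. Replicate 1 drew most of it as a single region of 22024 bp, 3L:627484-649507, at 1.86-fold. Replicate 2 had 3 separate regions in it, of which the longest was 3L:637326-643214, 5889 bp wide at 1.57-fold.

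The second widest, 3L:121124-141988, had a strong core. It spanned 20.9 kb at 2.73-fold in the combined list. In replicate 1 its core was 3L:127379-139174 at 3.49-fold, and in replicate 2 it was 3L:127370-132842 at 6.22-fold. The cores began at almost the same base, and that of replicate 1 ran further toward the centromere. The other 3 regions of each replicate inside this domain ranged from 1.45-fold to 1.52-fold in replicate 1 and from 1.37-fold to 1.61-fold in replicate 2. One of these, 3L:137521-139557 at 1.57-fold in replicate 2, lay mostly inside the core of replicate 1. The stretch strong in both lists was thus that of the core of replicate 2.

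The remaining members of the widest 5 lay nearer the centromere than the telomere. The domain 3L:17952362-17970742 spanned 18.4 kb at 1.70-fold, with 3 regions in each replicate that covered 92.3% of it in replicate 1 and 62.6% in replicate 2. At 3L:16031414-16046834 the fold was 1.48 over 15.4 kb, covered to 71.2% in replicate 1 and 33.8% in replicate 2. At 3L:19887760-19902924 the fold was 1.59 over 15.2 kb, which replicate 1 drew as 1 region of 14420 bp and replicate 2 as 4 regions. In all of the widest 5 replicate 1 covered a larger part than replicate 2.

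Where 1 region met 1, edges of the lists lay close together in most pairs and far apart in some. In 569 such pairs with replicate 1, the replicate start lay 71 bp inside the combined start at the median, and the replicate end 66 bp inside the combined end. In 333 pairs with replicate 2 the medians were 112 bp at the start and 83 bp at the end. Within 200 bp of the combined edge lay 59.1% of starts and 61.5% of ends in replicate 1, and 55.6% of starts and 58.0% of ends in replicate 2. In the outermost 5% of pairs, replicate 1 began at least 1419 bp and replicate 2 at least 2493 bp inside the combined start. Both edges of replicate 2 were inside those of the combined list more often, with 82.3% of starts and 79.3% of ends, against 69.8% and 69.4% in replicate 1. Of the regions of 3L that met replicate 1, 611 met a single region and 66 met several. With replicate 2, 337 met a single region and 30 met several, and the most met was 4 in each replicate. Most of the widest 5 regions of 3L met several regions of each replicate.

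Spacing on 3L was uneven. The median gap between neighbouring regions was 3592 bp, against a mean of 10762 bp, so a few long gaps stood beside many short ones. Median gaps were 4122 bp on 2L, 4806 bp on 3R and 4319 bp on X. Gaps under 1 kb were 24.7% of the 1750 gaps of 3L, against 25.1% on 2L, 22.6% on 3R and 20.9% on X. At the other end, 73 gaps over 50 kb took up 26.2% of the arm, against 30.8% on 2L, 28.2% on 3R and 27.9% on X. The longest was 193.6 kb at 3L:10000565-10194213, followed by 3L:19322071-19489275 (167.2 kb), 3L:5342609-5504297 (161.7 kb), 3L:14778267-14933931 (155.7 kb) and 3L:13269357-13417537 (148.2 kb). No replicate region reached into the gap at 3L:10000565-10194213, 3L:19322071-19489275 or 3L:13269357-13417537. Replicate 1 had 1 region that met the gap 3L:5342609-5504297, and replicate 2 had 1 that met 3L:14778267-14933931.

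**Figure D3:**
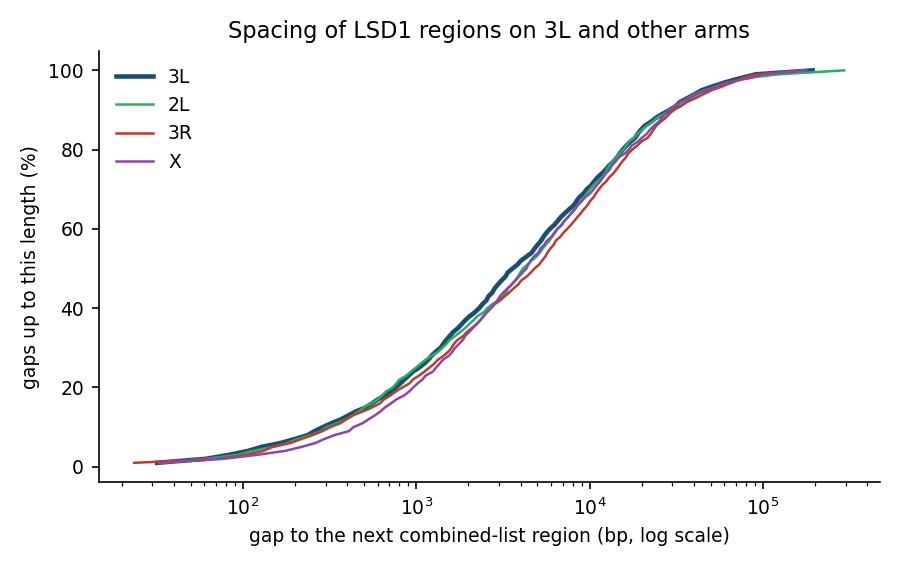
Share of gaps (y axis, percent) up to a given length (x axis, bp, log scale) between neighbouring combined-list regions on 3L, 2L, 3R and X, each without the 2 Mb at the centromere end. The curve of 3L reaches 50% at 3592 bp, left of the other arms.

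Many regions stood in chains, meaning runs with less than 1 kb between neighbours. On 3L, 711 regions or 40.6% belonged to 279 chains, against 40.97% of regions on 2L, 38.6% on 3R and 36.0% on X. Most chains were pairs (196), and 15 had 5 regions or more. The longest by number was 3L:503984-536086, with 10 regions over 32.1 kb, of which 7 were held by a replicate. The longest by span was 3L:606884-650100, with 5 regions over 43.2 kb and 97.1% of its bases in regions. The 5 shortest gaps were 3 to 7 bp long. At 3L:7976407-7976409, 3L:8451467-8451469 and 3L:9116217-9116221 a region of replicate 1 ran across the gap, so the combined list has 2 regions where replicate 1 has 1. At 3L:884193-884197 and 3L:714857-714863 neither replicate bridged it. A neighbour within 1 kb stood beside 119 of the 263 regions held by both, 237 of the 414 held by replicate 1 alone, 26 of the 104 held by replicate 2 alone and 329 of the 970 held by neither. Regions of replicate 1 alone were thus the most often close to another.

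Along the arm, the first Mb at the telomere end stood out in all 3 lists. The combined list had 118 regions there, and the other 21 full windows of 1 Mb had from 50 to 102 with a median of 73. Replicate 1 had 74 regions there, against 17 to 49 in the other windows (median 30). Replicate 2 had 46, against 9 to 33 (median 16). The excess was larger in bases: 37.7% of the first Mb lay in combined-list regions, against 9.64% to 21.7% in the other windows (median 13.7%). Relative to the median of all 22 full windows, the first Mb had 1.58 times the regions in the combined list, 2.39 times in replicate 1, 2.79 times in replicate 2, and 2.73 times the bases.

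**Figure D4:**
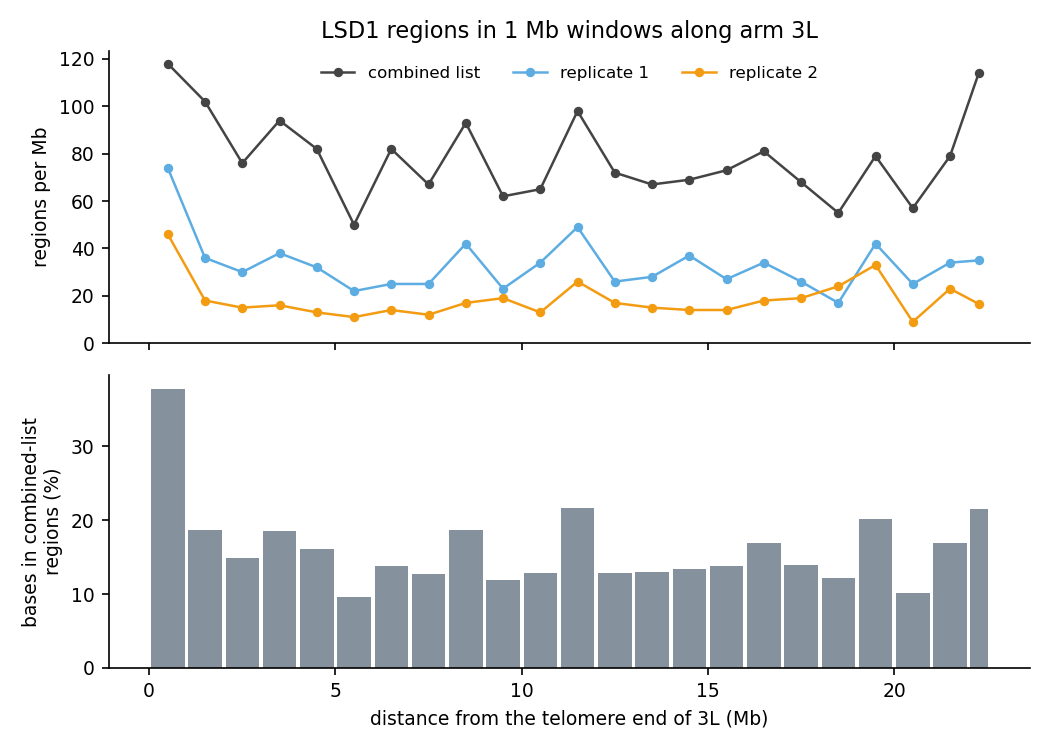
Top, regions per Mb (y axis) in the combined list and in both replicate lists in windows of 1 Mb by distance from the telomere end of 3L (x axis, Mb). Bottom, percent of bases in combined-list regions in the same windows, where the last window is 0.544 Mb long. The first window is the highest in every list, and the last window has 114.1 regions per Mb in the combined list.

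Regions of the first Mb were wider and closer together, with the same median enrichment as on the rest of 3L. Their median width was 1937 bp, against 1593 bp on the rest of 3L, and 17 of them (14.4%) reached 5 kb, against 3.55% on the rest. Their median gap was 1183 bp, against 3972 bp, and 81 of the 118 (68.6%) belonged to chains. Narrow regions under 1301 bp were 15.3% of the first Mb, against 33.8% of the rest. The median enrichment was 1.34-fold in the first Mb and 1.34-fold on the rest, and 2 regions of the first Mb exceeded 2-fold (1.69%), against 44 on the rest (2.69%). Both replicates held 28 regions of the first Mb, or 23.7% (16.4% to 32.4%), against 14.4% of the rest (12.7% to 16.2%). At least 1 replicate held 64.4% (55.1% to 73.0%), against 43.2% of the rest (40.8% to 45.6%). Since width went with support on the whole arm, the wider regions of the first Mb move with its support, and their part in it was not tested.

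Coverage by regions within the first Mb was uneven too. The arm opened with few regions: its first was 3L:70332-74714, 4383 bp wide at 1.61-fold and held by both replicates, and 3 regions started in the first 100 kb. From 100 to 200 kb, where the domain 3L:121124-141988 lies, 51.9% of bases were in regions. The densest bin was 700 to 800 kb, with 22 regions over 71.1% of its bases, of which both replicates held 6 and replicate 1 alone 9. The bins from 500 to 600 kb and from 600 to 700 kb had 59.8% and 54.6% of bases in regions. These 3 bins were the 3 most covered of all 225 bins of the arm, and 4 of the 10 most covered lay in the first Mb. From 900 kb to 1 Mb only 2 regions started, covering 3.41%. From 400 to 500 kb replicate 1 had 9 regions over 24.2% of bases and replicate 2 had 1 region over 1.34%. From 600 to 700 kb, replicate 1 had 9 regions over 46.2% of bases and replicate 2 had 7 over 18.1%.

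**Figure D5:**
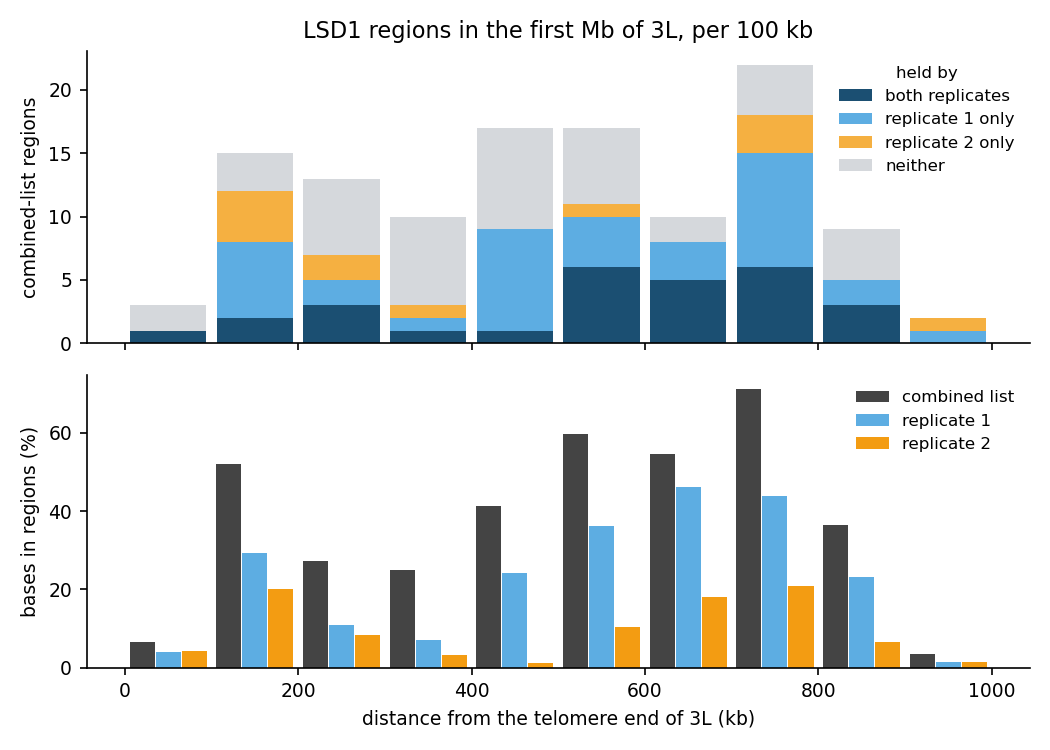
Top, number of combined-list regions per 100 kb of the first Mb of 3L (y axis) by distance from the telomere end (x axis, kb), divided by which replicates held them. Bottom, percent of bases in regions of the combined list, replicate 1 and replicate 2 in the same bins. Values are low in the first and last bins. Bases in regions peak from 700 to 800 kb in the combined list (71.1%) and replicate 2 (20.8%), and from 600 to 700 kb in replicate 1 (46.2%).

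The strongest regions of the first Mb, after the domain 3L:121124-141988, were moderate. The region 3L:706978-709408 had a combined score of 2.33-fold, with 2.30-fold by replicate 1 and 2.52-fold by replicate 2. It was followed by 3L:744632-752572 at 1.80-fold, 3L:879720-884192 at 1.79-fold and 3L:818110-823346 at 1.74-fold, all held by both replicates. The widest after the first pair were 3L:793194-805908 (12.7 kb, 1.47-fold), 3L:547462-559948 (12.5 kb, 1.39-fold) and 3L:806396-816416 (10.0 kb, 1.37-fold). The domain 3L:547462-559948 was held by replicate 1 alone, which covered 86.2% of it with 4 regions.

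Compared with the telomere ends of 2L, 3R and X, that of 3L had more regions. The Mb at that end had 118 regions on 3L, against 80 on 2L, 76 on 3R and 78 on X. In bases it had 37.7% in regions on 3L, against 22.1% on 2L, 16.3% on 3R and 14.0% on X. Relative to the density of its own arm, the end Mb had 1.52 times the regions on 3L, 1.10 times on 2L, 1.08 times on 3R and 1.06 times on X. The median width in the end Mb was 1937 bp on 3L, against 1972 bp on 2L, 1475 bp on 3R and 1492 bp on X. Both replicates held 23.73% of its regions on 3L, against 23.75% on 2L, 15.8% on 3R and 12.8% on X. At least 1 replicate held 64.4% on 3L and 68.75% on 2L, with lower shares on 3R and X. In width and support the end Mb of 3L was thus close to that of 2L. With 1 such Mb per arm, these differences were not tested.

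How far the first Mb stood apart depended on where windows were laid. Windows of 1 Mb moved in steps of 100 kb showed the densest Mb of the arm at 3L:400001-1400000, with 127 regions. Another window with 118 regions lay near the middle of the arm, at 3L:10600001-11600000, chosen after its values were seen. It had 72 regions in replicate 1, 31 in replicate 2 and 27.8% of bases in regions. Its median gap was 1979 bp and 7 of its regions reached 5 kb. Its 2 most covered bins were 3L:11300001-11400000, with 24 regions over 53.9% of bases, and 3L:11200001-11300000, with 16 over 46.5%. By counts of regions in the combined list it equalled the first Mb, while bases in regions and counts in replicate 2 were higher in the first Mb.

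Toward the centromere end, density in the combined list was high over the last, partial window and less so over a full Mb. This window of 0.544 Mb, 3L:22000001-22543557, had 62 regions, or 114.1 per Mb, and 21.5% of bases in regions. The full last Mb, 3L:21543558-22543557, had 91 regions over 16.8% of bases, beside 16.1% over the arm. Of the 62 regions of the partial window both replicates held 2 (3.23%) and at least 1 held 37.1%. Replicate 1 had 35.0 regions per Mb in it and replicate 2 had 16.6, close to their values of 33.0 and 18.4 over the arm. The last region inside the limit was 3L:22522166-22523404 at 1.38-fold and the first outside it was 3L:22543820-22544918 at 1.41-fold, both narrow and held by neither replicate.

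Windows also differed in which replicate saw them. Replicate 1 had more regions than replicate 2 in 21 of the 22 full windows. The exception was 3L:18000001-19000000, with 17 regions in replicate 1 and 24 in replicate 2. The window after it, 3L:19000001-20000000, had the highest share held by both, at 29.1%, with 42 regions in replicate 1 and 33 in replicate 2. The window with fewest combined-list regions was 3L:5000001-6000000, with 50 regions over 9.64% of bases, 22 regions in replicate 1 and 11 in replicate 2. Across the 22 windows, counts in replicate 1 and replicate 2 had a Spearman's rho of 0.43, and of 0.34 without the first Mb. Counts in the combined list had a rho of 0.78 with replicate 1 and of 0.42 with replicate 2. The windows share the same libraries, and the combined list shares its samples with both replicates.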

How the data were processed

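The files are 3 deposited lists of regions that the authors called significantly enriched, 1 for each LSD1 ChIP replicate and 1 for the replicate set. The genome is FlyBase release 5, per the file headers. Bowtie 0.12.7 is named in the submitters' processing notes. The sources used here give neither the region caller nor its threshold. The deposited scores were read as log2 values made by the authors before deposit, although no header states their unit. Every score is the log2 of a whole-number ratio multiplied by a constant of its list (2.13 combined, 1.80 replicate 1, 2.51 replicate 2), within 1e-12 in relative terms and for denominators of at most 20000.

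Alternatives were merging, minimum width, score, overlap, list length, window size, bases left out and each replicate left out. Positions are counted from 1. A region belonged to a window or bin by its start, and overlap needed 1 bp. Covered bases are those of the union of regions. The centromere lies at the last base of 2L, 3L and X and at the first base of 3R. Regions were named by rule: on 3L the 10 highest held by both, the widest 5, the 5 longest and 5 shortest gaps, in the first Mb the 5 highest and the widest 5, the highest 3 held by neither and by 1, the highest 3 of each replicate that the combined list lacks, the windows with most and fewest regions, and those beside the limit. Other windows, bins and chains, and the first region of the arm, were named after their values were seen. Members, rules and lists were chosen with earlier results of these data known. Procedures were checked on simulated data. Calculations used pandas 2.3.3 and numpy 2.4.6 under Python 3.11.15, intervals scipy 1.17.1, and plots matplotlib 3.10.9.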

Additional observations from a re-analysis of the deposited data

How the results depend on the processing

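Of 40 alternatives to 9 results, 16 stayed within the interval of the value reported and 24 moved outside it. Of the 40, 4 were added after the data were seen. For the median width and median gap, the interval came from ranks given by the binomial distribution. For the percent of bases and the ratio of the first Mb, it was the rescaled Poisson interval of the region count. The interval of that ratio leaves out error in the median window. Density on 3L was 72.1 per Mb with regions closer than 200 bp merged and 52.4 in regions of at least 1301 bp. It was 32.7 in the top 50% by score and 73.8 with nothing left out at the centromere end. The top 50% is that of the whole combined list, not of the regions of 3L. Bases in regions were 13.2% from 1301 bp, 8.26% in the top 50% and 15.2% with nothing left out. Median width was 1937 bp from 1301 bp and 1970 bp in the top 50%. Median gap was 4454 bp merged, 5521 bp from 1301 bp and 11631 bp in the top 50%. The share held by both was 22.3% from 1301 bp, 30.4% in the top 50% and 10.97% with replicate lists of equal length. The share held by at least 1 was 60.9% from 1301 bp and 53.9% in the top 50%, and was 20.96% without replicate 1 and 38.7% without replicate 2. With equal lists, 44.1% of replicate 1 regions and 51.6% of replicate 2 regions were shared. The first Mb had 2.73 times the median window by bases, and the remaining list gave 2.39 times without replicate 2 and 2.79 times without replicate 1. Leaving regions out of the combined list can only lower density and bases in regions. Leaving out a replicate, or shortening its list, can only lower the share of combined-list regions held. The causes of the other shifts were not tested. No paired analysis was possible because the inputs have no list of their own and no result comes from a test between groups. The depth behind each region is unknown.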

Other observations

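Of the replicate regions on 3L, 16 of replicate 1 and 8 of replicate 2 met no region of the combined list, and none of them was shared between the replicates. They were narrow, with a median width of 1408.5 bp in replicate 1, against 1918 bp for all its regions on 3L. In replicate 2 the median width was 1401 bp, against 1854 bp. Their folds ranged from 1.31 to 1.69 in replicate 1, with a median of 1.48 against 1.53 for all its regions on 3L. In replicate 2 the folds ranged from 1.41 to 1.66, with a median of 1.49 against 1.54. The highest in replicate 1 were 3L:14490582-14491908 at 1.69-fold, 3L:17238170-17239485 at 1.60-fold and 3L:21080892-21082906 at 1.57-fold. The highest in replicate 2 were 3L:3490809-3492259 at 1.66-fold, 3L:4512996-4514302 at 1.51-fold and 3L:22033651-22034989 at 1.50-fold.

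With the 3L regions ranked by score and divided into 10 near-equal groups, both replicates held 78.9% of the highest group, which began at 1.46-fold. They held 28.0% of the next group, 10.3% of the one after it, and 2.84% to 8.57% of the groups below. At least 1 replicate held 86.3% of the highest group, 54.9% of the next and 31.8% to 41.7% of the others. Of its 118 regions, the first Mb gave 17 to the highest group, 7 to the lowest and 8 to 16 to each of the others, while its median enrichment was that of the rest of the arm.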
